A study of Mus musculus with 16 samples.

Results

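The cytosolic ribosomal protein genes were described here as a group across 16 mouse glioblastoma libraries. They were chosen by symbol alone, as genes whose symbol is Rpl, Rps or Rplp followed by a number and at most a short suffix, with named pseudogenes left out. This gave 78 of the 26466 genes in the table of all libraries. Of the 78, 43 encode proteins of the large subunit, 30 proteins of the small subunit and 3 the P stalk, and 2 (Rps3a2 and Rps3a3) are processed pseudogenes in GENCODE vM21. Rpsa and Fau, which also encode ribosomal proteins, fall outside the symbol rule and are given beside the group.

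The tumours were grown by transplantation and come from a pair of lineage-based mouse models of glioblastoma, labelled Type 1 and Type 2. In some tumours of either kind the TAMs (tumour-associated macrophages, a mix of microglia and macrophages from the blood) had been depleted. Type 1 was represented by 5 Control and 3 TAM depleted tumours and Type 2 by 4 of each, with a single library from every tumour. The sources used here do not give the depletion agent, the alleles and cell of origin of the models, or the age and sex of the hosts. Nothing ties the tumours to separate animals, and p-values therefore speak only of the spread among these tumours.

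Each cytosolic ribosome holds a single copy of almost every ribosomal protein, and cells make these proteins in matched amounts. Most of their mRNAs begin with a 5′ terminal oligopyrimidine (TOP) motif, a C followed by a run of pyrimidines, through which mTORC1 and the RNA-binding protein LARP1 control their translation. Their transcription is raised by MYC family proteins, and ribosomal protein mRNA is abundant in growing and dividing cells and scarcer per cell in quiescent ones.

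Many but not all annotated starts of the genes show a TOP motif. The 10 below were chosen because the results turn on several of these genes or because their pyrimidine run is long. They are 25 bases before and 25 after the annotated RefSeq start (GRCm38.p6, 5′ to 3′ on the gene's own strand), with the longest qualifying run in capitals: a C followed by at least 4 pyrimidines, beginning within 10 bases of the annotated start. Rplp0, Rpl41 and Rpl24 hold no such run there, so they have no capitals.
Rpl27a (chr7:109519170-109519219, + strand): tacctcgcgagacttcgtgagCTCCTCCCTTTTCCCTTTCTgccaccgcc
Rpl35 (chr2:39005107-39005156, - strand): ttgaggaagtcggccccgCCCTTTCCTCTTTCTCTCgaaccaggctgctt
Rpl15 (chr14:18270962-18271011, - strand): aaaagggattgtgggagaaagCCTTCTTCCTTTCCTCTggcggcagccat
Rps6 (chr4:86857343-86857392, - strand): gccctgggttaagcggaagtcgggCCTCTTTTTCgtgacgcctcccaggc
Rps27 (chr3:90213624-90213673, - strand): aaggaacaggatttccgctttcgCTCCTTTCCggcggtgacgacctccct
Rpl38 (chr11:114668555-114668604, + strand): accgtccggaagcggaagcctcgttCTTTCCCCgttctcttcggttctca
Rps7 (chr12:28635929-28635978, - strand): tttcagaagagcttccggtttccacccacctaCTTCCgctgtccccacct
Rplp0 (chr5:115559442-115559491, + strand): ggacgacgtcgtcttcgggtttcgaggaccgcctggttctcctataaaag
Rpl41 (chr10:128549144-128549193, - strand): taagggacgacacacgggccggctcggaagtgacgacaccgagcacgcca
Rpl24 (chr16:55966250-55966299, + strand): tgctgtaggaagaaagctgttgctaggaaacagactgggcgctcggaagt

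RefSeq promoters were matched for 56 of the 78 genes, at 66 annotated starts. A TOP run as defined stood at 36 of the 66 starts (54.5%), against 30.7% of all 32851 mouse starts in the table. The shares lay further apart for longer runs. A run of 8 or more bases stood at 34.8% of their starts and at 8.11% of all starts. A C with 4 pyrimidines exactly at the annotated start stood at 19.7% and 2.51%. The longest of those printed, in Rpl27a, had 20 bases. On either strand of the 300 bases around the start, CCGGAAG, a word bound by ETS factors, stood at 36.4% of the genes' starts and 8.86% of all starts. AAGATGG, which holds the core of the YY1 word and can also hold a start codon, stood at 16.7% and 6.34%. The E-box CACGTG, to which MYC binds, stood at 12.1% and 7.15%, and TATAAA at 9.09% and 13.6%. None of these words is part of another, and a match is a description of the letters. Annotated starts can lie some bases from the start a cell uses.

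Between 4.21 M and 18.3 M reads were recovered from a library, and values below are normalized counts, that is reads divided by the authors' size factor of the library. The libraries fell into a high-background set of 9 and a low-background set of 7. The first had 2622 to 8377 reads per M (mega) reads in odour and pheromone receptor genes and 13.8% to 58.2% of all reads in the predicted gene Gm10800, and the second had 93.1 to 763 reads per M reads and 0.0491% to 2.03%. In Type 1 the sets coincide with treatment, since all 5 controls were high and all 3 depleted tumours low, and the 2 cannot be told apart there. In Type 2 each group held 2 high and 2 low libraries. Of 17 macrophage and microglia markers, 0 passed in Type 1 after depletion (median log2 fold change -0.26), where 0% of all genes were called, and 4 fell in Type 2 (median -1.39), where 3.61% of all genes were called. Their mean log2 level ran from 6.81 to 7.59 in Type 1 Control, 6.35 to 7.24 in Type 1 TAM depleted, 7.76 to 9.04 in Type 2 Control and 6.65 to 7.68 in Type 2 TAM depleted libraries. None of these markers, and none of the 7 glioma markers (mean log2 level 6.41 to 11.03), was at 0 in a library.

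Ribosomal protein transcripts took between 0.509% and 3.60% of the reads, and this share spanned more within each group than between the group means. In Type 1 Control libraries 1 to 5 it was 2.86%, 1.25%, 0.759%, 1.62% and 2.17%. In Type 1 TAM depleted libraries 1 to 3 it was 3.28%, 3.60% and 1.46%. Libraries 1 and 2 held the highest shares of all 16, while library 3 lay within the range of the controls. In Type 2 Control 1 to 4 the share was 0.533%, 2.73%, 1.01% and 1.93%, and in Type 2 TAM depleted 1 to 4 it was 1.91%, 0.816%, 2.04% and 0.509%. These Type 2 groups overlapped, and Control 2 alone lay above every depleted tumour. The counting error is small: the 95% Wilson interval of the lowest share is 0.504% to 0.514% and that of the highest 3.59% to 3.61%, and intervals cover counting error only, because the reads carry no molecular identifiers.

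The group means were 1.73% ± 0.82 (SD, n = 5), 2.78% ± 1.15 (SD, n = 3), 1.55% ± 0.98 (SD, n = 4) and 1.32% ± 0.77 (SD, n = 4) in the order above. Gm10800 takes reads from the total, so the share was also taken of the reads outside it. It then averaged 2.36% ± 1.04, 2.82% ± 1.19, 1.79% ± 0.74 and 1.59% ± 0.92, with the lowest library, Type 2 TAM depleted 2, at 0.816% and the highest, Type 1 TAM depleted 2, at 3.68%. The gap between the Type 1 groups was smaller on this denominator. In bulk tissue, fewer cells that express these genes and less of their RNA per cell cannot be told apart.

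**Figure D1:**
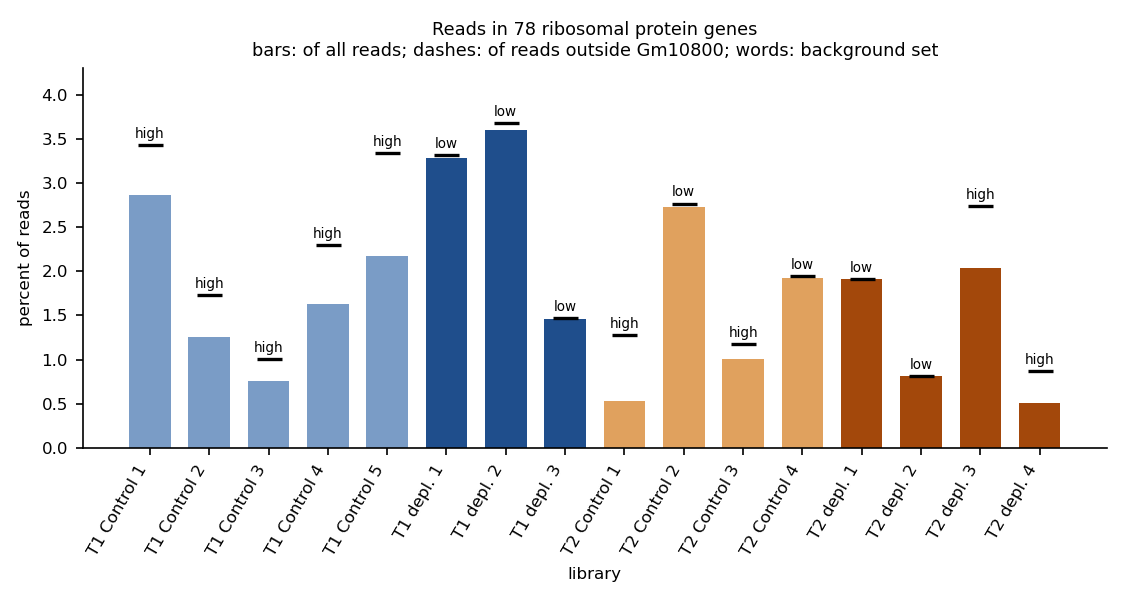
Percent of reads in the 78 ribosomal protein genes (y axis) in each of the 16 libraries (x axis). Bars are of all reads and coloured by group, dashes are of reads outside Gm10800, and the word above names the background set; T1 and T2 are Type 1 and Type 2, and depl. is TAM depleted. Bars run from 0.509% in Type 2 TAM depleted 4 to 3.60% in Type 1 TAM depleted 2, and bar and dash lie apart in the high-background libraries.

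The genes moved together from library to library. In 12 of the 16 libraries at least 70 of the 78 stood on the same side of their own mean over all libraries: 78 of 78 lay below it in Type 1 Control 3 and Type 2 Control 1, and 78 of 78 above it in Type 1 Control 5 and Type 1 TAM depleted 1. Their mean log2 level ran from 8.81 in Type 2 TAM depleted 4 to 11.2 in Type 1 TAM depleted 2, a 5.22-fold range. Within groups it spanned 3.76-fold in Type 1 Control, 2.34-fold in Type 1 TAM depleted, 3.60-fold in the Type 2 Control and 3.52-fold in Type 2 TAM depleted libraries. The pooled SD within groups was 0.80 log2 units.

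Most of the spread of a single gene was shared with the others. Of the 74 genes with a mean of 50 normalized counts or more, the median SD within groups was 0.86 log2 units. It was 0.28 after the mean of the other ribosomal protein genes in the library was subtracted, and the SD shrank for 74 of 74. Subtracting the same mean from all 13985 genes of that level raised their median SD from 0.55 to 0.85, and shrank it for 16.5%. Rps24 (0.11), Rpl28 (0.13), Rpl37a (0.15) and Rpl7a (0.16) kept the smallest SD around the group mean. Rps27 (0.60), Rps14 (0.52), Rpl35 (0.51) and Rps3a3 (0.48) kept the largest. These genes were picked by their rank in this measure after the values were seen.

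**Figure D2:**
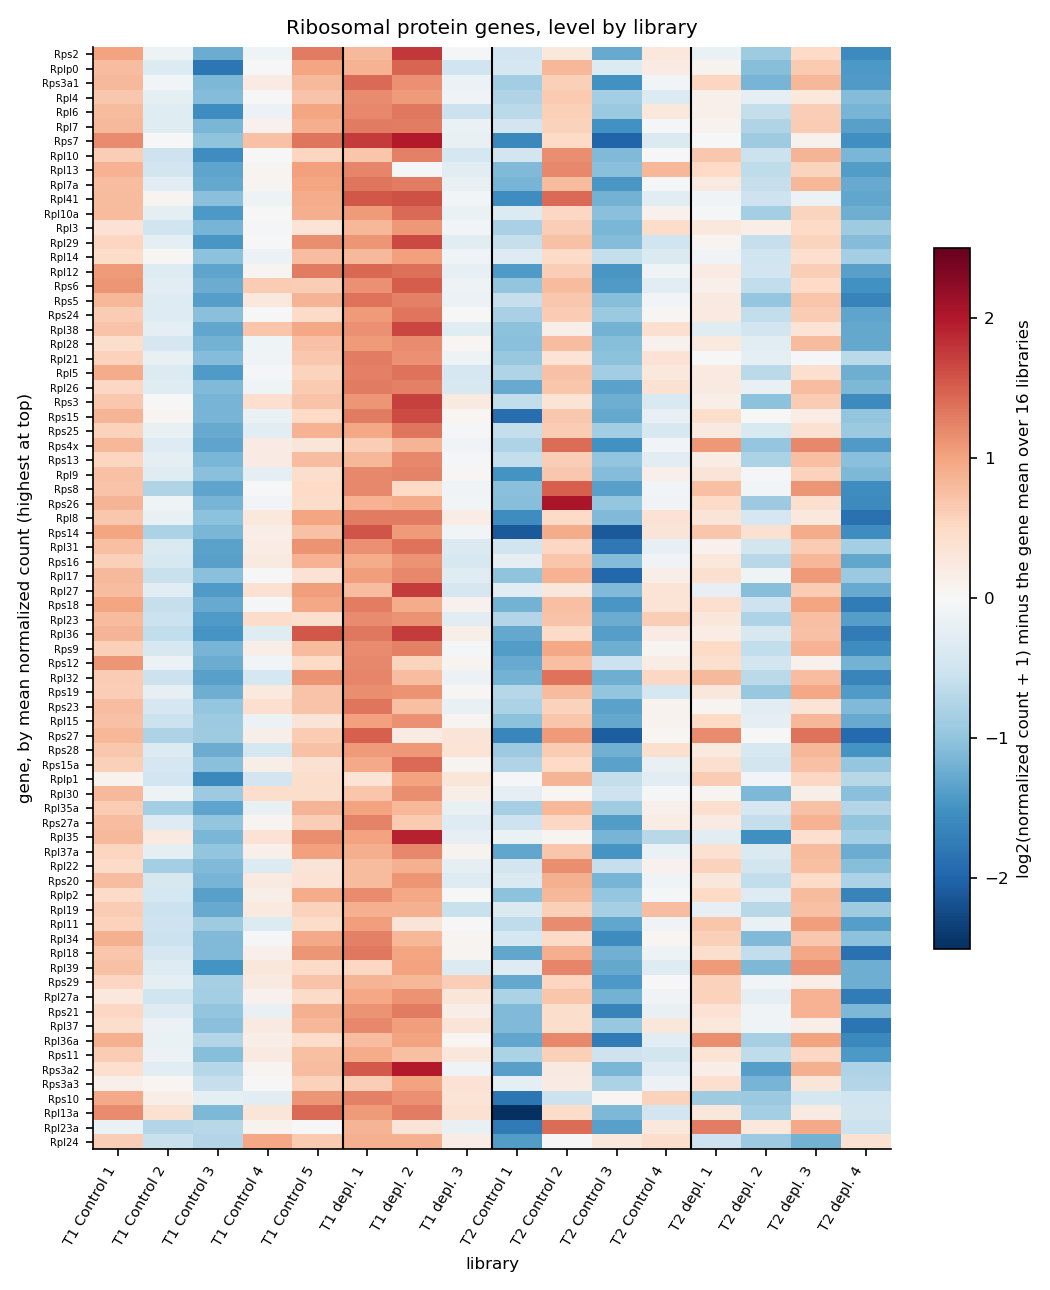
Level of 76 of the 78 genes (rows, highest mean count at top) in each library (columns, black lines part the groups), as log2(normalized count + 1) minus the gene's mean over 16 libraries. Whole columns share a colour, as in Type 1 Control 3 (78 of 78 genes below their mean) and Type 1 TAM depleted 1 (78 of 78 above), and single genes such as Rps26 in Type 2 Control 2 depart from their column.

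The first comparison asks whether ribosomal protein transcripts changed with TAM depletion in Type 1 tumours. The group mean of all 78 was higher in depleted tumours. Log2 fold changes ran from 0.27 to 1.09 around a median of 0.72, while the median over all genes tested was -0.06. None of the 78 passed (limma-trend, adjusted p over all genes), and neither did any other gene, so that the share of all genes called was 0%. Unadjusted p was under 0.05 for 1 of the 78 and for 8019 of all 26463 genes tested. Limma-voom called 0 of the 78 as well. The libraries of the 2 groups overlapped for all 78, where they parted upward for 10.5% and downward for 28.6% of all genes.

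Rplp1, an acidic protein of the P stalk that recruits translation factors, had the smallest p of the 78. Its normalized counts were 968, 653, 296, 648 and 1220 in the controls and 1152, 1828 and 1118 in the depleted tumours, which puts a single control, number 5, inside the range of the depleted. The log2 fold change was 0.96 (SE 0.44, limma-trend unadjusted p = 0.045, adjusted p = 0.157). Its partner Rplp2 had 0.78 (SE 0.59, adjusted p = 0.356), and Rplp0, the base of the stalk, 0.69 (SE 0.64, adjusted p = 0.448).

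The highest fold changes were those of Rps3a2 (1.09) and Rpl36 (1.07), and the lowest those of Rpl13 (0.27), Rpl24 (0.46) and Rpl39 (0.46), a protein of the exit tunnel. Rpl36, a large-subunit protein, counted 2157, 771, 427, 963 and 3490 in the controls and 2953, 3987 and 1320 in the depleted tumours (SE 0.68, adjusted p = 0.279). Depleted tumour 2 exceeded every control and tumours 1 and 3 lay among them. Of the 78 genes, depleted tumour 1 exceeded every control in 64, tumour 2 in 63 and tumour 3 in 0. Rps6, the substrate of S6 kinase, had 0.68, and Rps19, a gene mutated in some Diamond-Blackfan anaemia, 0.75. Rpl5 (0.79) and Rpl11 (0.60), which bind Mdm2 when ribosome assembly is disturbed, were close to the median of the group.

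Several settings moved the Type 1 median. It was 0.32 with upper quartile scaling and 0.26 with reads outside Gm10800 as the scale, which also took the median of all genes from -0.06 to -0.44 and -0.51. The distance between the 2 medians was then 0.77 and 0.76, against 0.78 in the main fit, and it was 0.06 with quantile scaling (median of the 78 at 0.11). With the background set as a covariate, whose effect then comes from the Type 2 libraries alone, the median was -0.02. Leaving out depleted tumour 3 gave 1.15 and leaving out control 3 gave 0.42. With library quality weights 57 of the 78 were called higher, and 19 were in the table that holds Type 1 alone, so the count of 0 rests on the weights and the table used. The share of all genes called in those fits is not given here, so the counts do not set these genes apart from others.

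For Type 2 tumours the same comparison showed no shared direction. Of the 78, 52 stood higher and 26 lower after depletion, with a median log2 fold change of 0.10, against -0.21 over all genes. None was called (limma-trend, 0 at an unadjusted p under 0.05, 0 by limma-voom), where 3.61% of all genes were. The libraries overlapped for all 78, where they parted upward for 3.86% and downward for 3.39% of all genes. The sign of the median depends on the scale, with -0.12 by upper quartile, -0.18 by reads outside Gm10800 and -0.25 by quantile scaling. It also differed between the background sets, at 0.65 within the 4 high-background libraries and -0.50 within the 4 low-background ones.

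Rpl23a (0.86), Rps14 (0.85) and Rpl13a (0.82) stood at the upper end and Rplp0 (-0.51) and Rps26 (-0.38) toward the lower. Rps14, whose loss in human bone marrow belongs to the 5q deletion, counted 325, 2648, 324 and 1742 in the controls and 2264, 1809, 2671 and 475 in the depleted tumours (SE 0.73, adjusted p = 0.564). Controls 1 and 3 and depleted tumour 4 were low, and the other 5 libraries lay at 1742 or more. Rpl23a and Rpl13a rest on few reads, 695 and 844 over all 16 libraries.

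Between the controls of the 2 tumour kinds, 72 of the 78 stood lower in Type 2 and 6 higher. Log2 fold changes ran from -1.44 to 0.40 around a median of -0.33. The median over all genes was -0.23, so the group lay 0.10 below it. None of the 78 was called by limma-trend (2 at an unadjusted p under 0.05) or by limma-voom, where limma-trend called 3.09% of all genes. The libraries overlapped for all 78, where they parted upward for 5.03% and downward for 1.93% of all genes. Within the high-background libraries the median was -0.999, with 1 gene called lower and 25 of the 78 at an unadjusted p under 0.05. The shares of all genes in that fit are not given here. Type 2 was represented there by Control 1 and 3 alone. Their mean log2 levels of the 78 were 9.11 and 8.88, against 10.7 and 10.1 in Control 2 and 4. With the background set as a covariate the median was -0.69.

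Rps7, a small-subunit protein that also binds Mdm2, was the gene called in the high-background libraries (log2 fold change -2.26, adjusted p = 0.047). Over all libraries it counted 7375, 3296, 1622, 5450 and 8219 in Type 1 Control and 1062, 4626, 815 and 2554 in Type 2 Control (-1.32, SE 0.61, adjusted p = 0.353). Type 2 Control 1 and 3 lay below every Type 1 control and the other two among them. Rpl13a had -1.44 (SE 0.61, adjusted p = 0.285) from 78.5, 44.5, 14.9975, 42.2 and 92.0 against 3.57, 47.3, 15.1 and 24.4 normalized counts, and its lowest value is a single read. At the other end stood Rplp1 (0.40), Rpl22 (0.36), which is not essential for translation and is best known for a role in T cell development, and Rplp0 (0.14).

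The difference of the depletion responses, Type 2 minus Type 1, asks whether the genes responded differently in the 2 kinds. It was below 0 for 75 of the 78, with a median of -0.62 against 0.16 over all genes. None was called by limma-trend, with 0 at an unadjusted p under 0.05, and 0 by limma-voom, and 0% of all genes was called (2666 at an unadjusted p under 0.05). Rplp0 (-1.19, SE 0.90, adjusted p = 0.567) and Rpl41 (-1.01) lay low, and Rpl13a (0.34), Rpl23a (0.23) and Rps27 (0.11) highest. Rpl41 encodes a peptide that is among the shortest of any ribosome. With the background set as a covariate the median was 0.16, so its sign depends on that term. This comparison shares its samples with the 2 before it.

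**Figure D3:**
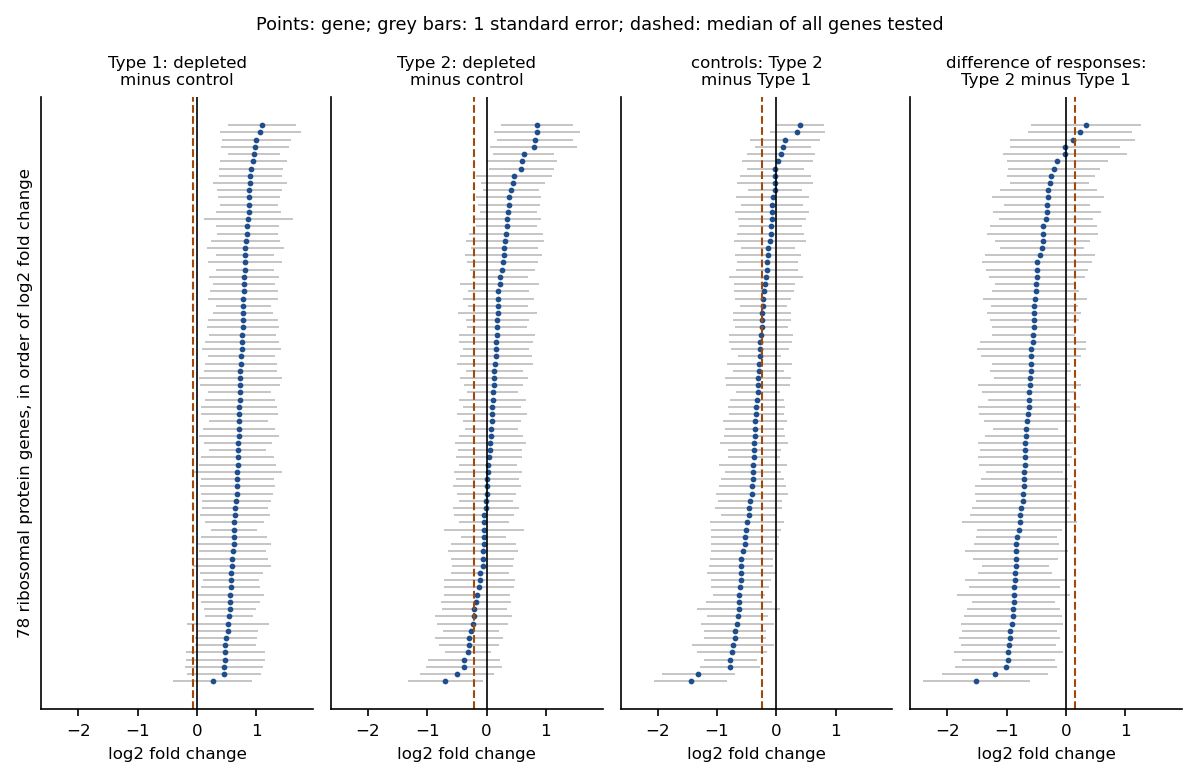
Log2 fold changes (x axis) of the 78 genes, each panel in its own order of size (y axis), for depletion in Type 1, depletion in Type 2, the controls, and the difference of the depletion responses. Points are genes, grey bars 1 standard error, the black line 0 and the dashed line the median of all genes tested. All 78 points lie above 0 in Type 1, 52 in Type 2, 6 between the controls and 3 in the difference, and no point passed the test.

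To ask which genes departed from the rest of the ribosome, each library was divided by the geometric mean of the group's own counts and the fit was repeated, so that the scale of the libraries does not enter. No gene of the 78 was called in any of the 4 comparisons (limma-trend). Among all genes 0%, 0%, 0.59% and 0% were called for Type 1 depletion, Type 2 depletion, the controls and the difference. At an unadjusted p under 0.05 there were 0, 0, 3 and 0 of the 78, and limma-voom called 0 in each. Library quality weights called 22 of the 78 for Type 1 depletion, 9 higher and 13 lower. The share of all genes called with these weights is not given here. The largest weights were 22.7 in Type 1 Control 4 and 13.5 in Type 1 TAM depleted 1, and the smallest 0.177 in Type 2 TAM depleted 4. The 3 genes at an unadjusted p under 0.05 between the controls were Rps7, Rpl22 and Rplp1.

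Rps7 was lower in Type 2 Control relative to the other ribosomal protein genes (log2 fold change -0.99, SE 0.31, limma-trend unadjusted p = 0.0051, adjusted p = 0.236). Library quality weights gave -1.14 (adjusted p = 0.0214), the single call among the 78 in this comparison. Rpl22 had 0.68 (SE 0.30, adjusted p = 0.615). It counted 976, 390, 324, 555 and 881 in Type 1 Control and 511, 1573, 469 and 752 in Type 2 Control. These counts, and those of Rplp1 below, are normalized counts before the scaling to the other ribosomal protein genes, so an overlap in them is not one on the relative scale. Rplp1 had 0.73 (SE 0.35, adjusted p = 0.706), with 883, 1639, 601 and 758 normalized counts in Type 2 Control. At the low end Rpl13a had -1.15 and Rps10 -0.45.

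Large relative differences after depletion in Type 2 were those of Rplp0 (-0.61) and Rps26 (-0.49) below, and Rpl23a (0.78), Rps14 (0.75) and Rpl13a (0.75) above. Rplp0 counted 3979, 9474, 4247 and 6191 in the controls and 5673, 2574, 8466 and 1972 after depletion. In Type 1 they were Rpl13 (-0.46), Rpl39 (-0.27) and Rpl36a (-0.25) below, and Rps3a2 (0.37) and Rpl36 (0.34) above. For the difference of responses Rplp0 (-0.57) and Rpl41 (-0.39) lay low and Rpl13a (0.98), Rpl23a (0.86) and Rps27 (0.74) highest. The adjusted p was 0.556 or more for each of these by limma-trend.

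Rps27, a zinc-finger protein of the small subunit, varied most around the group. It counted 1594, 524, 479, 986 and 1391 in Type 1 Control, 2505, 1029 and 1120 in Type 1 TAM depleted, 290, 1859, 214 and 921 in Type 2 Control, and 2024, 893, 2303 and 233 in Type 2 TAM depleted libraries. Type 1 TAM depleted 2, the library with the highest mean of the group, held 1029 and so was not among the highest for Rps27. Type 2 TAM depleted 1 and 3 were high. The X-linked genes Rpl36a and Rpl39 were also high in Type 2 Control 2 (412 and 829), Type 2 TAM depleted 1 (400 and 740) and Type 2 TAM depleted 3 (358 and 785). In Type 1 TAM depleted 2 they counted 358 and 713. The 2 other X-linked genes were Rpl10, with log2 fold changes of 0.69 in Type 1 and 0.06 in Type 2, and Rps4x, with 0.52 and 0.22. Rpl3, which reaches toward the peptidyl transferase centre, had 0.81 and 0.22.

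Levels between genes can be compared only per exon length. On that scale Rps3a1 (5988 normalized counts per kb of exon), Rps2 (5517), Rpl38 (5082) and Rpl13 (4954) were among the highest, and the median of the 78 was 1519. The 5 lowest were Rpl24 (18.6), Rpl13a (37.9), Rps10 (38.3), Rpl23a (56.8) and Rps3a3 (86.2). The first 4 of these are core proteins of the ribosome, and 71.5%, 54.9%, 54.3% and 55.4% of their exon bases lie under exons of another annotated gene. For Rpl24 that gene is Gm28037, for Rpl13a Gm45713, for Rps10 the read-through gene RPS10-NUDT3 and for Rpl23a Tlcd1. Of the 78, 60 had no exon base under another gene.

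Every gene with over 45% overlap lay below the median of protein-coding genes with none, by unlike amounts. Over 45% of exon bases were shared in 8 genes, with a median of 426 normalized counts per kb, against 1955 in protein-coding genes of the group with none shared. The other 4 were Rps25 (48.7%, 1586 per kb), Rpl5 (46.6%, 1227), Rpl35 (68.3%, 899) and Rpl30 (55.0%, 796). The kit does not mark strand, and how reads under 2 genes were counted is not given in the sources used here, so the part of overlap in these levels was not tested. Rpl24 held 245 reads over all libraries, and values for the 4 lowest genes are uncertain for this reason.

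**Figure D4:**
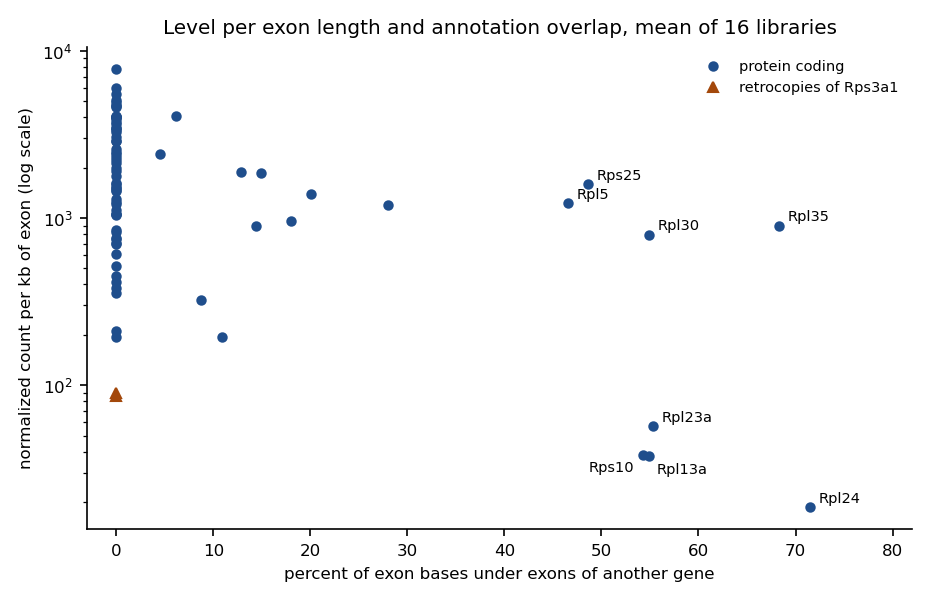
Mean normalized count per kb of exon over 16 libraries (y axis, log scale) against the percent of exon bases that lie under exons of another gene in GENCODE vM21 (x axis), 1 point a gene, with triangles for the 2 retrocopies. Rpl24, Rpl13a, Rps10 and Rpl23a lie lowest, at 18.6 to 56.8 per kb and 54.3% to 71.5% overlap, and Rpl35, Rpl30, Rps25 and Rpl5 lie at 796 to 1586 per kb with a like overlap.

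The 2 retrocopies show how near-identical copies can share reads. Over the 795 coding bases of Rps3a1 (chr3:86137940-86142702, GRCm38), Rps3a2 (chr14:88123017-88123808) was identical at 99.0% and Rps3a3 (chr13:108670603-108671397) at 98.9%. The stretch of coding bases 201 to 260 is shown because both copies differ in it from Rps3a1, with the differing bases in capitals.
Rps3a1: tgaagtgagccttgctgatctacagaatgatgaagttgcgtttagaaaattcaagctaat
Rps3a2: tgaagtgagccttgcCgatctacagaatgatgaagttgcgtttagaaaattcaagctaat
Rps3a3: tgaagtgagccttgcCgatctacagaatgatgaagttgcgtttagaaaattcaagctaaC

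Rps3a2 differed from Rps3a1 at 1 base of this stretch and Rps3a3 at 2, so a read over these bases can part Rps3a1 from the copies. Over all aligned coding bases Rps3a2 differed at 4 and Rps3a3 at 9, so short reads from elsewhere can match more than 1 of the 3 genes. Of the 50-base windows of Rps3a1, 71.0% also occurred in transcripts of other genes. The levels of Rps3a2 and Rps3a3 were 89.6 and 86.2 normalized counts per kb, against 5988 for Rps3a1. Rps3a2 ranged from 20.9 normalized counts in Type 2 TAM depleted 2 to 226 in Type 1 TAM depleted 2. Rps3a3 ranged from 28.1 to 128. Over all 78 genes a median of 53.2% of the 50-base windows of the transcript also occurred in transcripts of other genes, from 0% to 98.6% in Rps27, so the values of single genes are uncertain where the authors' counting could split such reads.

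A list of translation factors and other genes known for TOP mRNAs moved with the ribosomal protein genes. The motif was not counted at the starts of these genes, and its part in the shared movement was not tested. The translation factor list (Eef1a1, Eef2, Tpt1, Npm1 and others, 17 of 18 tested) had a pooled SD within groups of 0.68, which became 0.20 after the mean of the ribosomal protein genes was subtracted. The list is known to overlap in control with the group and was chosen for that. Its median log2 fold change was 0.68 in Type 1, -0.09 in Type 2, -0.22 between the controls and -0.79 for the difference, with 0 genes called by limma-trend in each. Rpsa and Fau had log2 fold changes of 0.78 and 0.70 in Type 1 and 0.08 and 0.34 in Type 2.

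Ribosome biogenesis factors, which assemble the subunits in the nucleolus, had an SD of 0.53 that became 0.30. None of the 26 was called in the 4 comparisons, with medians of 0.62, 0.18, -0.58 and -0.39 in the same order. Between the controls limma-trend gave Wdr12 -1.18 (adjusted p = 0.081), Nop56 -1.63 (adjusted p = 0.105) and nucleolin, Ncl, -1.19 (adjusted p = 0.142). The SD of the mTORC1 and LARP1 list, 0.30, became 0.64. This rise does not show whether the list followed the ribosomal protein genes, because their own SD was larger, at 0.80. In each comparison 0 of 14 genes were called. In Type 1 the S6 kinase Rps6kb1 had 0.65 (adjusted p = 0.112). The 77 mitochondrial ribosomal proteins, which serve a separate ribosome, had an SD of 0.38 that became 0.46, and 0 were called in each comparison. They stood in the same order as the cytosolic genes in Type 1 Control, Type 1 TAM depleted and Type 2 Control libraries. In Type 2 TAM depleted libraries they did not. The nucleolar stress and p53 list had 0 of 7 called in each.

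Of the MYC family, transcription factors known to drive ribosome production, Mycn and Myc differed between the kinds and Mycl did not pass (log2 fold change -0.49, limma-trend adjusted p = 0.628). Mycn counted 29296, 19479, 5923, 19927 and 46869 in Type 1 Control and 71.5, 43.4, 41.8 and 49.9 in Type 2 Control (log2 fold change -8.60, SE 0.54, limma-trend adjusted p = 3.7e-07). Myc counted 112 to 166 in Type 1 Control and 268 to 1031 in Type 2 Control (2.27, SE 0.43, adjusted p = 0.0068). All 5 Mycn values of Type 1 lie above those of Type 2, and the Myc values lie the other way round. Neither passed after depletion in either kind (Mycn 0.56, limma-trend adjusted p = 0.495, and 1.56, adjusted p = 0.143).

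Proliferation markers tended to stand high where the ribosomal protein genes did, and neuronal markers, in Type 1, where they did not. The mean log2 level of 10 proliferation genes was lowest in the library with the lowest ribosomal protein level in Type 1 Control (8.47 in library 3) and in Type 2 Control (8.24 in library 3). In Type 2 TAM depleted libraries it was 9.28, 6.92, 9.72 and 7.72, with library 3 highest in both lists. Its SD within groups of 0.87 became 0.45 after subtraction. The 12 neuron genes stood in the reverse order of the ribosomal protein genes in Type 1 Control (8.45, 9.72, 10.5, 8.90 and 8.26) and in Type 1 TAM depleted libraries (9.51, 7.16 and 11.04). The reverse order was not particular to neuron genes. Astrocyte and oligodendrocyte markers also held it in Type 1 TAM depleted libraries, and not in Type 1 Control or either Type 2 group.

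In Type 2 the reverse order of the neuron genes did not hold throughout, with levels of 6.80, 5.39, 6.44 and 8.82 in the controls and 10.7, 12.4, 9.34 and 10.7 after depletion. After depletion 7 of the 12 neuron genes rose in Type 2 (median 3.66), where 3.61% of all genes were called, and 0 in Type 1 (median 0.15), where 0% were. The part of neuronal tissue and of dividing cells in the ribosomal protein levels was not tested. The SD within groups of the macrophage markers, 0.47, became 0.80 after subtraction, which does not show whether they followed the ribosomal protein genes. They stood in the same order as the ribosomal protein genes in Type 1 TAM depleted and Type 2 Control libraries and not in the other 2 groups.

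**Figure D5:**
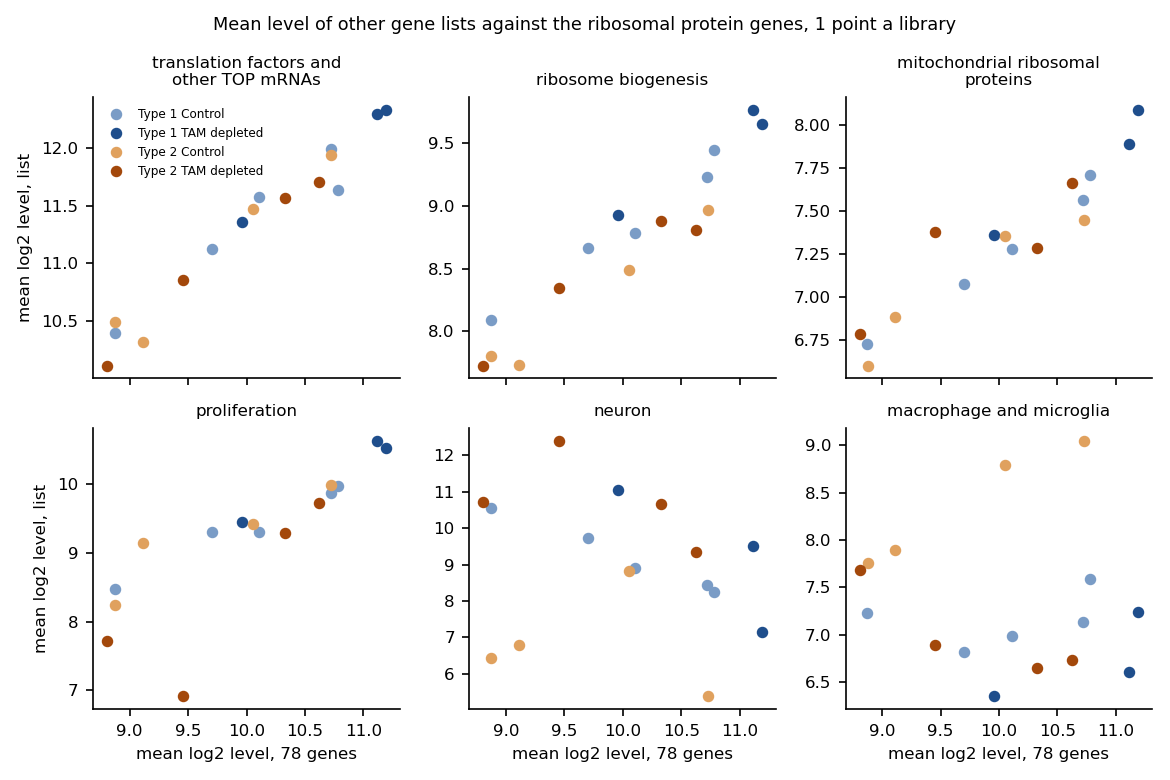
Mean log2(normalized count + 1) of 6 other gene lists (y axes) against that of the 78 ribosomal protein genes (x axis), 1 point a library, coloured by group. Points of the translation factor list lie along 1 line, from 10.1 at a group mean of 8.81 to 12.3 at 11.2, while neuron points go from 10.5 to 8.26 between Type 1 Control 3 and 5.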

How the data were processed

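Bulk RNA-seq was measured in 16 libraries, prepared per the labels' protocols by SMART-Seq v4, which marks no strand, aligned with STAR 2.7.8a to GRCm38 and processed with DESeq2 (version not given in the sources used here) per the submitters' processing notes. The authors deposited variance-stabilized log2 values, not counts. Undoing the transformation (the square of the difference between 2 raised to v/2 and 2 raised to floor - v/2, for a deposited value v and the table's lowest value as floor) gave normalized counts. In every library 100% of them were whole numbers of a common unit within 0.05 reads, and so reads and size factors were recovered. Because the deposited unit is log2, no count model was run.

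A gene was tested if 3 libraries held a normalized count of at least 10, which kept 26463 genes, all 78 ribosomal protein genes among them. Limma-trend (R 4.3.3, limma 3.58.1) was fitted to log2 of the normalized count with 1 added, over the 4 groups at once with 12 residual degrees of freedom. Tests were 2-sided, Benjamini-Hochberg adjusted over all genes, at a threshold of 0.05. A second fit divided each library by the geometric mean of the group's genes with a mean of 50 or more. Background sets were parted at 1500 receptor reads per M reads. Genes named were, in each comparison and on each scale, the 3 highest and 3 lowest fold changes, the 5 highest and 5 lowest per kb, and 15 genes of set roles, less some that are not reported here. The genes and lists were chosen with earlier results of these data known. Groups and replicate numbers come from the sample titles. Same-numbered tumours did not deviate together throughout (correlations from -0.67 to 0.50), and the numbers were not used as pairs in the main fit. This check cannot exclude a pairing, because the pairs are few and some join libraries of unlike background sets. No 2 libraries of a group agreed within sampling noise (chi-square of 9.43 or more per degree of freedom). Alternatives covered scaling, filter, pseudocount, weights, limma-voom, background set, the separate tables and left-out libraries. The steps were tested on simulated data. Annotation is GENCODE vM21 and promoter sequence is RefSeq (GRCm38.p6).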

Additional observations from a re-analysis of the deposited data

Results flagged for a closer look

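In Type 2 Control 2, Rps26, a small-subunit protein mutated in some Diamond-Blackfan anaemia, stood far above the rest of its group at 6509.96 normalized counts, against 758, 813 and 1504 in the other Type 2 Control libraries. The whole group of ribosomal protein genes was high in that library (mean log2 level 10.7, against 8.88 to 10.1), and Rps26 by more than most. The same check was made for 31 measures in each of 3 groups, and chance alone flags about 1 in 20 groups.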

How the results depend on the processing

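The count of 0 ribosomal protein genes called held under scaling, pseudocount, filter, limma-voom, replicate block and each left-out library in all 4 comparisons. Exceptions were as follows. In Type 1 depletion library quality weights called 57 and the table of Type 1 alone 19, all higher, and relative to the other ribosomal protein genes the weights called 22 (9 higher and 13 lower). The weights ran from 0.22 to 3.65 and, on the relative scale, from 0.177 to 22.7, where their estimation stopped early. Between the controls the high-background libraries alone called 1, and on the relative scale the weights called 1, Rps7 in both cases. Shares of all genes called under these exceptions are not given here, so the counts do not set the ribosomal protein genes apart from others. With the replicate block the median log2 fold change was 0.90 in Type 1, 0.10 in Type 2, -0.15 between the controls and -0.75 for the difference, with 0 called. Leaving out 1 library moved these medians from 0.42 to 1.15, -0.20 to 0.45, -0.65 to -0.07 and -1.02 to -0.29. The background covariate for Type 1 was chosen after seeing the data. For named genes 2078 values kept their call and moved by less than 1 SD, 35 moved further and 22 were called where the main fit had no call. Depth limits Rpl24, Rpl13a, Rps10 and Rpl23a, with 245 to 929 reads each over all libraries.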

Other observations

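The 94 named ribosomal protein pseudogenes together held reads equal to 1.40% to 4.00% of those of the ribosomal protein genes. The highest, 4.00%, was in Type 2 Control 1, which also had the highest share of Gm10800 reads (58.2%), and the lowest, 1.40%, in Type 2 TAM depleted 2, which had the lowest (0.0491%). That order did not hold throughout. Type 2 TAM depleted 3 had 1.675% with 25.7% of its reads in Gm10800, and Type 1 TAM depleted 2 had 2.40% with 2.03%. Reads in mitochondrial ribosomal protein genes ranged 2.08-fold between libraries as a share of reads outside Gm10800, from 0.140% to 0.292%, and those in cytosolic ones 4.51-fold.

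The balance of large and small subunit genes moved little. The mean log2 count of large-subunit genes minus that of small-subunit genes was -0.18 ± 0.06 (SD, n = 5) in Type 1 Control, -0.20 ± 0.09 (SD, n = 3) in Type 1 TAM depleted, -0.07 ± 0.07 (SD, n = 4) in Type 2 Control and -0.13 ± 0.11 (SD, n = 4) in Type 2 TAM depleted libraries. The values were not tested, and the sign itself depends on exon lengths.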
